A study of Mus musculus with 5 samples.

Results

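A group of 10 genes of Toll-like receptor and NF-kB signalling was described in livers of neonatal mice with 1 or 2 intact copies of Mdr2. They were chosen by symbol among the 36401 Ensembl genes of the count tables, and all 10 were found and passed the filter on low counts: Lbp, Cd14, Tlr4, Tlr2, Myd88, Nfkbia, Tnfaip3, Il1b, Il18 and Il1rn. Mdr2 is the older name of Abcb4, whose product moves phosphatidylcholine into bile. The heterozygous group was Mdr2+/- (3 libraries, replicates 1 to 3) and its reference genotype was Mdr2+/+ (2 libraries, replicates 1 and 2). All pups were BALB/C mice, from a stock in which the Mdr2 null allele had been crossed back to that strain, and were killed on day 10 of life. Each library was made from RNA of lobe 1 of the liver. The labels describe the genotypes as littermates but do not say which pups shared a litter, how many backcross generations there were, or whether the libraries of a genotype come from different pups, so p-values measure the spread between these libraries, which may be technical.

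Toll-like receptors recognise microbial products. Bacterial lipopolysaccharide is carried by LBP to CD14 and then to TLR4, while TLR2 senses bacterial lipoproteins, and both receptors signal through the adaptor MyD88 to release the transcription factor NF-kB. NF-kB switches on inflammatory genes such as Il1b and also its own brakes, IkB-alpha (Nfkbia) and the ubiquitin-editing enzyme encoded by Tnfaip3. In the liver, gut-derived bacterial products reach Kupffer cells, the resident macrophages, through the portal blood, and hepatocytes secrete LBP. The series title links low expression of the gene to an inflammatory form of biliary atresia, a bile duct disease of infants, and the comparison asks whether these genes differ in pups with a single intact allele.

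Because NF-kB binds kappaB motifs and is known to induce several of these genes, the promoters that held a kappaB match are given here. RefSeq windows of 300 bases (250 before and 50 after a start site, GRCm38.p6) were at hand for 7 of the 10 genes. They were searched on both strands for the degenerate kappaB consensus, a motif of 10 bases, and overlapping matches are shown as one run of capitals. The 7 genes had 10 windows, of which 3 held a match, those of Nfkbia, Tnfaip3 and Tlr2, and 8.46% of all 32851 promoter windows held one. The matches stand in capitals, 5′ to 3′ on the gene's own strand, which is minus for these 3 genes.
Nfkbia, chr12:55492598-55492897: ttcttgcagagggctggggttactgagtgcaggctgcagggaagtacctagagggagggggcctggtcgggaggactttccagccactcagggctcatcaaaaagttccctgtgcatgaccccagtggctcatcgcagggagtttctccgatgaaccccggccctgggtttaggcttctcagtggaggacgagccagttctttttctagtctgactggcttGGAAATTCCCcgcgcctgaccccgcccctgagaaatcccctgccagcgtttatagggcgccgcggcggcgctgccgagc
Tnfaip3, chr10:19015361-19015660: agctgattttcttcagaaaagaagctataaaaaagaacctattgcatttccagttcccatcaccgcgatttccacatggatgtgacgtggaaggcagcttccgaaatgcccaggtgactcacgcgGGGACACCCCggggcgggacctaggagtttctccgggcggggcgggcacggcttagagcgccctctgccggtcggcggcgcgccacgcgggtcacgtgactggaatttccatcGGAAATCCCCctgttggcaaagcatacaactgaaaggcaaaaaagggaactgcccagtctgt
Tlr2, chr3:83841559-83841858: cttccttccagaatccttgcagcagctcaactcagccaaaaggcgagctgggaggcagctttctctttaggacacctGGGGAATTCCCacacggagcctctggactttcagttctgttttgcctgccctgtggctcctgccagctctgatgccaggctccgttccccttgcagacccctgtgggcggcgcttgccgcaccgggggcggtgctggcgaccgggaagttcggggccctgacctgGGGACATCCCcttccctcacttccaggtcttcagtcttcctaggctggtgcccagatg
In Nfkbia the match began 29 bases before the start. Tnfaip3 held matches beginning 125 and 12 bases before it, and Tlr2 an overlapping pair at 173 and 172 bases before it and a further match at 8. A match describes the letters only.

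The targeted gene checked the labels. Abcb4 (chromosome 5, 8893717 to 8959231, plus strand, mm10) had 101, 97.7 and 92.6 normalised CPM (estimated counts scaled to library size, with TMM factors between libraries) in Mdr2+/- livers, against 162 and 162 CPM in Mdr2+/+ livers (log2 fold change -0.74, SE 0.06, edgeR adjusted p = 3.4e-04). Over all genes, 1680 of 13959 tested passed an adjusted p of 0.05 (edgeR quasi-likelihood test, Benjamini-Hochberg), 925 higher and 755 lower in Mdr2+/- livers. Scaling by library size alone turned that split to 704 higher and 936 lower. Depth was 12991301 to 17312851 estimated counts in Mdr2+/- and 11944157 to 14644529 in Mdr2+/+ libraries.

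None of the 10 genes passed the test, while 12.0% of all tested genes did: 0 were higher (6.63% of all genes) and 0 lower (5.41%). At an unadjusted p under 0.05 there were 2, Myd88 and Il18, both lower in Mdr2+/- livers, against 28.2% of all genes. DESeq2 and limma also called 0, with 0 and 2 genes at an unadjusted p under 0.05. The fold changes ran from -0.42 to 0.39 on the log2 scale (Mdr2+/- minus Mdr2+/+), 4 above and 6 below 0, with a median of -0.10 beside -0.00 over all tested genes. In 4 of the 10 genes the genotypes did not overlap, 2 higher and 2 lower in Mdr2+/- livers, and the same held for 45.5% of all genes, 22.9% higher and 22.7% lower.

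**Figure D1:**
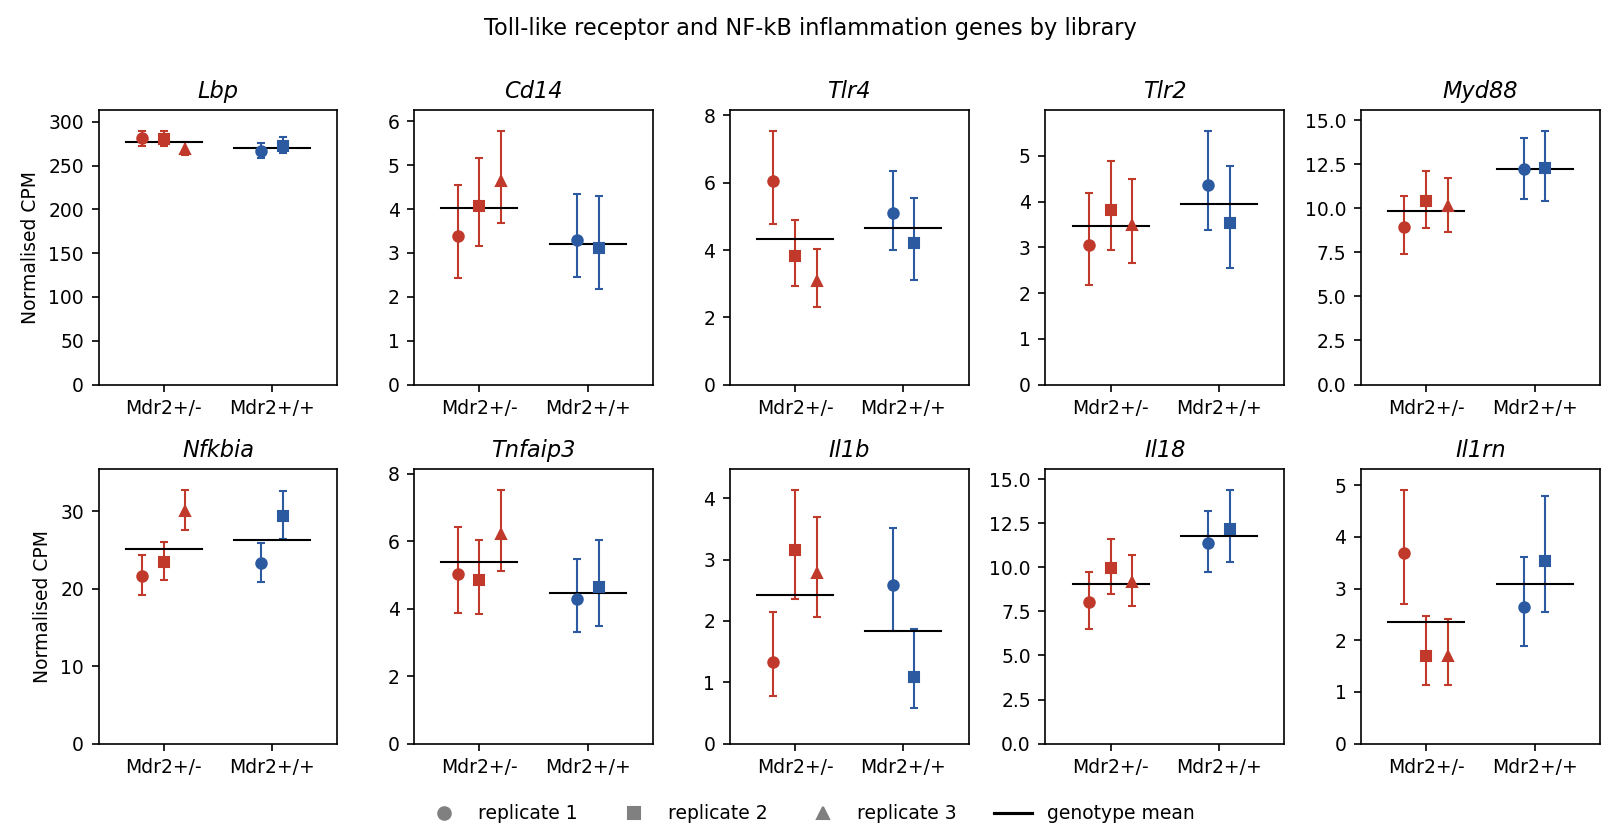
Normalised CPM of the 10 genes in each library, from 0 on each vertical axis, for Mdr2+/- (red, 3 libraries) and Mdr2+/+ (blue, 2 libraries). Bars are exact 95% Poisson intervals that cover counting error only, and the black line is the genotype mean. Myd88 and Il18 lie lower and Cd14 and Tnfaip3 higher in every Mdr2+/- library, and the other 6 genes overlap.

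The lipopolysaccharide-sensing genes were led by Lbp, the secreted carrier (chromosome 2, 158306493 to 158332852, plus strand). Lbp had 281, 280 and 269 CPM in Mdr2+/- livers, against 267 and 273 CPM in Mdr2+/+ livers. These ranges overlapped, and with 3248 to 4632 counts per library the interval was the narrowest of the 10 genes. The log2 fold change was 0.04 (SE 0.06, 95% interval -0.10 to 0.17, edgeR adjusted p = 0.753). In linear terms the ratio lay between 0.932 and 1.13.

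Cd14 encodes the co-receptor that hands lipopolysaccharide to TLR4. Its level was 3.38, 4.07 and 4.65 CPM in Mdr2+/- livers, against 3.30 and 3.11 CPM in Mdr2+/+ livers. Every Mdr2+/- library lay above both Mdr2+/+ libraries, but only in replicate 3 did the counting interval lie above both Mdr2+/+ values. Its log2 fold change of 0.34 (SE 0.20, interval -0.11 to 0.79) did not pass (edgeR adjusted p = 0.305).

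Tlr4, the receptor itself (chromosome 4, 66827584 to 66930284, plus strand), had 6.04, 3.82 and 3.08 CPM in Mdr2+/- livers, against 5.09 and 4.21 CPM in Mdr2+/+ livers. The Mdr2+/- libraries lay on both sides of the Mdr2+/+ pair, replicate 1 above and replicates 2 and 3 below it. The log2 fold change was -0.15 (SE 0.27, interval -0.75 to 0.46; edgeR adjusted p = 0.772), and its sign turned without Mdr2+/+ replicate 1 (0.00) or Mdr2+/- replicate 3 (0.06).

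Tlr2 (chromosome 3, 83836272 to 83841767, minus strand) had 3.06, 3.82 and 3.49 CPM in Mdr2+/- livers, against 4.36 and 3.53 CPM in Mdr2+/+ livers. The groups overlapped, with a log2 fold change of -0.19 (SE 0.19, interval -0.62 to 0.24; edgeR adjusted p = 0.560). Without Mdr2+/+ replicate 1, the highest library, it was -0.03.

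Myd88, the adaptor shared by most Toll-like receptors and the interleukin-1 receptor (chromosome 9, 119335934 to 119341411, minus strand), had 8.95, 10.4 and 10.1 CPM in Mdr2+/- livers, against 12.2 and 12.3 CPM in Mdr2+/+ livers. All 3 Mdr2+/- libraries lay below both Mdr2+/+ libraries. The log2 fold change was -0.31 (SE 0.11, interval -0.56 to -0.06), a ratio of 0.807, with an unadjusted p of 0.0194 and an adjusted p of 0.1 in edgeR. Exons of Myd88 overlap exons of Acaa1a on the opposite strand. Acaa1a held a mean of 6426 estimated counts per library, and the sources used here do not say whether counting used the strand, so part of the Myd88 reads is uncertain. Acaa1a itself had 438 ± 18.8 CPM in Mdr2+/- and 442 ± 40.0 CPM in Mdr2+/+ livers (SD, n = 3 and 2), a log2 fold change of -0.01.

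Neither feedback inhibitor passed the test. Nfkbia, which encodes the protein that holds NF-kB in the cytoplasm (chromosome 12, 55489410 to 55492647, minus strand), had 21.7, 23.5 and 30.1 CPM in Mdr2+/- livers, against 23.3 and 29.4 CPM in Mdr2+/+ livers. Each genotype held a high and a low library, and the spread within a genotype was wider than the difference between the means (log2 fold change -0.05, SE 0.15, interval -0.38 to 0.27; edgeR adjusted p = 0.844). The sign turned without Mdr2+/+ replicate 2 (0.12) or Mdr2+/- replicate 1 (0.04).

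Tnfaip3 (chromosome 10, 19000910 to 19015657, minus strand) had 5.02, 4.86 and 6.22 CPM in Mdr2+/- livers, against 4.29 and 4.63 CPM in Mdr2+/+ livers. The Mdr2+/- libraries were all higher, but again only the counting interval of replicate 3 lay above both Mdr2+/+ values. The log2 fold change was 0.28 (SE 0.18, interval -0.12 to 0.67; edgeR adjusted p = 0.347), and without Mdr2+/- replicate 3 it was 0.15. The 3 genes with kappaB matches in their windows, Nfkbia, Tnfaip3 and Tlr2, had fold changes of -0.05, 0.28 and -0.19. Those with a window but no match, Il1b, Il18, Myd88 and Il1rn, had 0.39, -0.37, -0.31 and -0.42. None of these genes passed, and a link between matches and fold changes was not tested.

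**Figure D2:**
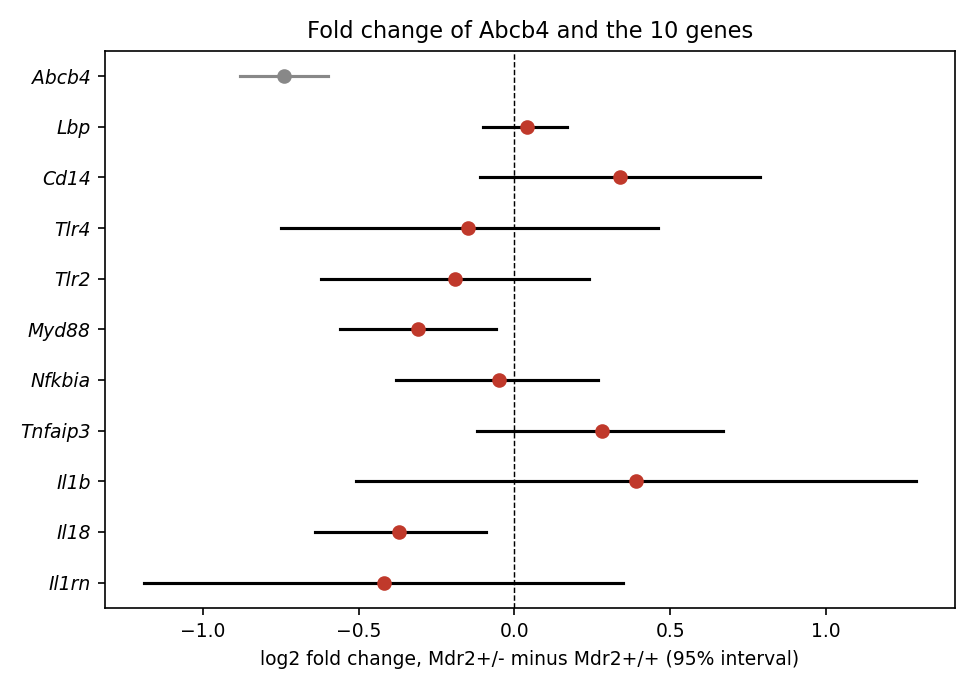
Log2 fold change (Mdr2+/- minus Mdr2+/+) of Abcb4 and the 10 genes with 95% intervals from the fit over all genes. Abcb4 lies at -0.74, the interval of Lbp is the narrowest among the 10 genes, and those of Il1b and Il1rn are the widest.

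None of the cytokine genes passed either. Il1b, the inflammatory cytokine that NF-kB induces (chromosome 2, 129364570 to 129371139, minus strand), had 1.33, 3.16 and 2.79 CPM in Mdr2+/- livers, against 2.58 and 1.09 CPM in Mdr2+/+ livers. Each genotype held a low and a high library, on 13 to 52 rounded counts, and the ranges overlapped. Its log2 fold change was 0.39 (SE 0.40, interval -0.51 to 1.29; edgeR adjusted p = 0.576). It ran from -0.05 without Mdr2+/+ replicate 2 to 1.18 without Mdr2+/+ replicate 1, so single libraries set its size and its sign.

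Il1rn encodes the natural antagonist of the interleukin-1 receptor (chromosome 2, 24336853 to 24351494, plus strand). It had 3.69, 1.70 and 1.69 CPM in Mdr2+/- livers, against 2.64 and 3.53 CPM in Mdr2+/+ livers. Replicate 1 of the Mdr2+/- group was the highest of the 5 libraries, and the other 2 Mdr2+/- libraries were the lowest. Its fold change was -0.42 on the log2 scale (SE 0.34, interval -1.19 to 0.35; edgeR adjusted p = 0.466). Without Mdr2+/- replicate 1 it was -0.84 (adjusted p = 0.0758).

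Il1b was low where Il1rn was high. Both libraries with the least Il1b, Mdr2+/- replicate 1 and Mdr2+/+ replicate 2, had the most Il1rn. The ratio of Il1b to Il1rn counts was 0.365, 1.86 and 1.69 in Mdr2+/- livers, against 0.992 and 0.313 in Mdr2+/+ livers. This ratio was looked at after the counts were seen. It overlapped between the genotypes (two-sided exact permutation p = 0.5 over 10 splits, where 0.1 is the smallest possible). With 5 libraries no correlation is given. Ratios of Cd14 to Tlr4 and of Tnfaip3 to Nfkbia counts were computed too. That of Cd14 to Tlr4 overlapped between the genotypes (two-sided exact permutation p = 0.5). That of Tnfaip3 to Nfkbia was 0.232, 0.208 and 0.206 in Mdr2+/- livers, against 0.184 and 0.158 in Mdr2+/+ livers. It did not overlap (two-sided exact permutation p = 0.1, the smallest possible).

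**Figure D3:**
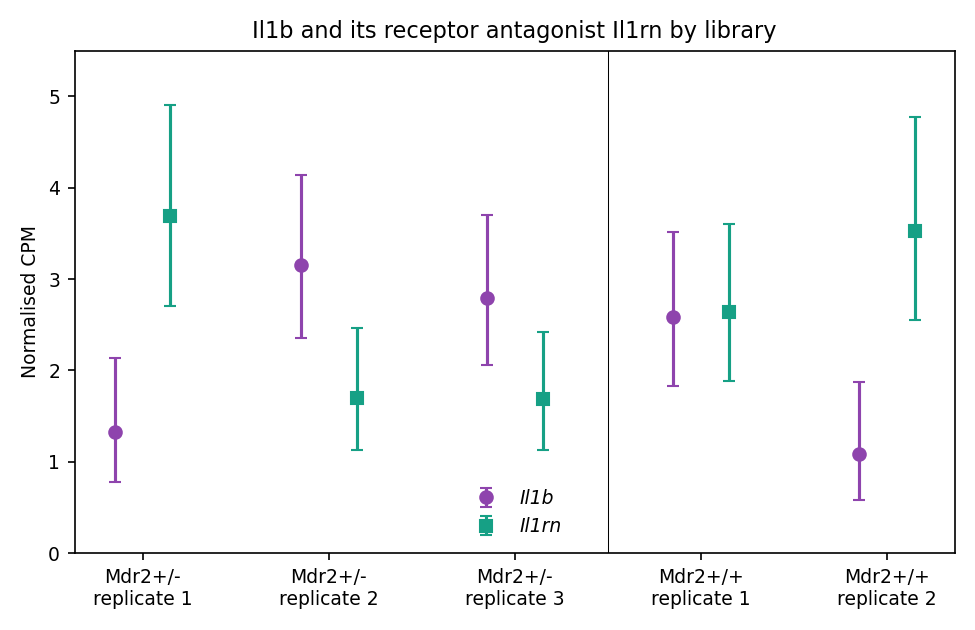
Normalised CPM of Il1b (circles) and Il1rn (squares) in the 3 Mdr2+/- and 2 Mdr2+/+ libraries, with exact 95% Poisson intervals for counting error. Il1rn exceeds Il1b in Mdr2+/- replicate 1 and Mdr2+/+ replicate 2, Il1b exceeds Il1rn in Mdr2+/- replicates 2 and 3, and they are level in Mdr2+/+ replicate 1.

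Il18, a cytokine that caspase-1 activates and that drives interferon-gamma production (chromosome 9, 50554827 to 50581840, plus strand), had 8.01, 9.95 and 9.19 CPM in Mdr2+/- livers, against 11.4 and 12.2 CPM in Mdr2+/+ livers. All Mdr2+/- libraries lay below both Mdr2+/+ libraries. Its log2 fold change was -0.37 (SE 0.12, interval -0.64 to -0.09), a ratio of 0.774, with an unadjusted p of 0.0136. Its edgeR adjusted p of 0.0812 was the lowest of the 10 genes and ran from 0.0662 to 0.321 over the alternatives. Its locus overlaps Bco2 and Tex12 on the opposite strand, but no exons overlap.

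Levels were compared per length, as CPM per kb of the longest annotated transcript. Lbp stood first at 110 ± 2.58 in Mdr2+/- and 107 ± 1.70 in Mdr2+/+ livers (SD, n = 3 and 2). Nfkbia followed at 15.9 ± 2.82 in Mdr2+/- and 16.7 ± 2.71 in Mdr2+/+ livers, Il18 at 10.2 ± 1.11 and 13.3 ± 0.669, and Myd88 at 3.99 ± 0.310 and 4.97 ± 0.0372, again with Mdr2+/- first. These first 4 places were separated library by library within each genotype. Cd14 came next at 2.46 ± 0.390 in Mdr2+/- and 1.95 ± 0.0818 in Mdr2+/+ livers. Il1b, Tlr2, Tlr4, Il1rn and Tnfaip3 lay at 0.866 to 1.79 in Mdr2+/- and 0.719 to 1.35 in Mdr2+/+ livers. Neighbours in that order overlapped between libraries within each genotype, except Tnfaip3, which lay below the others in Mdr2+/+ livers, and the order among these low genes changed with the mean transcript length in place of the longest, which put Tlr2 last in both genotypes.

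**Figure D4:**
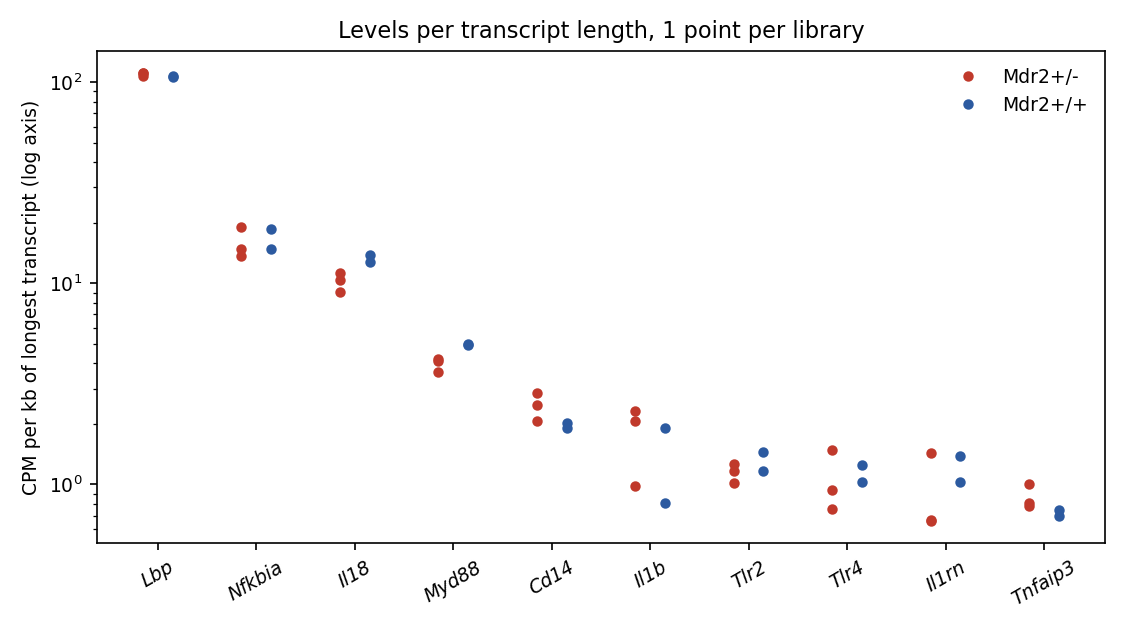
Level of each gene per kb of its longest transcript on a log axis, 1 point per library, Mdr2+/- in red and Mdr2+/+ in blue. Lbp lies near 110 CPM per kb, well above Nfkbia and Il18, and Cd14, the receptors, Il1b, Il1rn and Tnfaip3 lie between 0.660 and 2.84 in Mdr2+/- livers.

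The rest of the pathway was read from 6 lists arranged by role, 96 genes in all. Of 82 tested, 4 rose and 5 fell (11.0%, beside 12.0% of all genes), with a median of -0.05. Among 14 other tested receptors and their helpers, 1 fell and 0 rose (7.14%, also beside 12.0% of all genes), with a median of -0.14. Tlr1, a partner of TLR2, fell to 2.59, 2.79 and 2.21 CPM in Mdr2+/- livers, against 5.15 and 3.53 CPM in Mdr2+/+ livers (log2 fold change -0.80, SE 0.22, edgeR adjusted p = 0.0452). Mdr2+/+ replicate 1 was its highest library. Without it the log2 fold change was -0.49 (adjusted p = 0.320), and the call was also lost without Mdr2+/- replicate 1, 2 or 3 (0.0792 to 0.125). Tlr1 resembles its neighbour Tlr6, so reads may be split between them, and Tlr6 had a log2 fold change of 0.11 (adjusted p = 0.853). Tlr12 (log2 fold change -0.61, adjusted p = 0.0676) and Ly86, a partner of the receptor homologue CD180 (-0.53, 0.12), did not pass, except Tlr12 without the filter on low counts (0.0471).

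Adaptors and kinases had a median of -0.01, and 1 of 19 rose and 1 fell (10.5%, beside 12.0% of all genes). Ikbkb, the catalytic kinase that marks IkB proteins for destruction, rose to 34.2 ± 2.32 CPM in Mdr2+/- livers, against 27.6 ± 0.414 CPM in Mdr2+/+ livers (log2 fold change 0.31, SE 0.08, edgeR adjusted p = 0.0372). Ube2n, the ubiquitin-conjugating enzyme that works with TRAF6, fell to 53.3 ± 2.59 CPM in Mdr2+/- livers, against 64.6 ± 3.40 CPM in Mdr2+/+ livers (log2 fold change -0.27, SE 0.07, edgeR adjusted p = 0.0335). Neither call held in all alternatives. That of Ube2n was lost with any library left out (0.0597 to 0.155), and that of Ikbkb without Mdr2+/+ replicate 1 or 2 or Mdr2+/- replicate 1 or 3 (0.0856 to 0.159). With all libraries kept, the call of Ikbkb was also lost by library size alone (0.0577), with a length offset (0.0779) and in DESeq2 (0.112), and that of Ube2n in DESeq2 (0.0884). Ikbke, a related kinase, did not pass (log2 fold change -0.35, adjusted p = 0.0753), except with a length offset (0.0376).

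All 5 NF-kB subunit genes had fold changes above 0 in the fit (median 0.26), beside 6929 of all 13959 tested genes. The signs held in each of the 14 alternatives, which reuse the same libraries and are not independent. Only Nfkb2 passed (1 of 5, 0 lower, beside 6.63% of all genes higher). The 95% intervals of Nfkb1 (-0.09 to 0.25) and Relb (-0.16 to 0.68) spanned 0. Nfkb2 encodes the precursor of the noncanonical pathway. It rose to 12.5, 10.9 and 13.4 CPM in Mdr2+/- livers, against 9.11 and 7.74 CPM in Mdr2+/+ livers (log2 fold change 0.53, SE 0.13, edgeR adjusted p = 0.0310). Its call was lost without Mdr2+/+ replicate 1 or 2 or Mdr2+/- replicate 1 or 3 (0.0637 to 0.139), and its exons overlap those of Psd on the opposite strand (a mean of 12.2 estimated counts for Psd beside 159.9 for Nfkb2). Rela, the main transactivating subunit (log2 fold change 0.21, adjusted p = 0.0787), and Rel, a subunit abundant in lymphoid cells (0.73, 0.125), did not pass.

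Among 18 tested inhibitors, 2 rose and 0 fell (11.1%, beside 12.0% of all genes), with a median of 0.10. Irak3, a kinase-like brake on MyD88 signalling in macrophages and monocytes, rose to 1.57, 1.15 and 1.05 CPM in Mdr2+/- livers, against 0.462 and 0.421 CPM in Mdr2+/+ livers (log2 fold change 1.46, SE 0.36, edgeR adjusted p = 0.0314). Its exons overlap those of Tmbim4 on the opposite strand, with a mean of 585 estimated counts beside 13.8 for Irak3, so its reads are uncertain. The call was lost without Mdr2+/+ replicate 1 or 2 or Mdr2+/- replicate 1 or 2 (0.0636 to 0.143). Tollip, which restrains IRAK1, rose to 49.1 ± 1.88 CPM in Mdr2+/- livers, against 40.2 ± 1.77 CPM in Mdr2+/+ livers (log2 fold change 0.29, SE 0.07, adjusted p = 0.0262), a call lost with any library left out (0.0514 to 0.144). Cyld, a deubiquitinase that limits NF-kB activation, did not pass (log2 fold change 0.29, adjusted p = 0.106).

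Genes that NF-kB is known to induce gave no call. Of 20 listed, 10 were tested, and 0 of them rose and 0 fell in edgeR, beside 12.0% of all genes called. At an unadjusted p under 0.05 there were 0, beside 28.2% of all genes, and the median was -0.07. Cxcl10, a chemokine induced by interferon and NF-kB, had 6.12, 7.65 and 8.84 CPM in Mdr2+/- livers, against 15.1 and 6.90 CPM in Mdr2+/+ livers (log2 fold change -0.56, adjusted p = 0.218). Mdr2+/+ replicate 1 alone was high: without it the log2 fold change was 0.14 (adjusted p = 0.777), while without Mdr2+/+ replicate 2 it was -0.99 (adjusted p = 0.018). Exons of Cxcl10 overlap those of Art3 on the opposite strand, with a mean of 27.3 estimated counts for Art3 beside 133.4 for Cxcl10. The adhesion molecule gene Vcam1 (log2 fold change -0.09, adjusted p = 0.457) and the adaptor gene Traf1 (-0.55, 0.567) did not pass. The other 10, Tnf, Il6, Il10, Il12b, Ccl3, Ccl4, Cxcl2, Sele, Ptgs2 and Nos2, had at most 8 counts in any library and were not tested. Tnf had 0, 5 and 2 counts in Mdr2+/- livers, against 5 and 5 in Mdr2+/+ livers, and Il6 had 0, 0 and 0 against 0 and 1. Modest differences in these genes could not be seen at this depth, where 3 counts correspond to 0.174 to 0.235 CPM in Mdr2+/- and 0.198 to 0.252 CPM in Mdr2+/+ libraries.

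The interleukin-1, interleukin-18 and inflammasome list had 3 of 16 tested members lower and 0 higher. These were 18.8%, beside 5.41% of all genes lower and 12.0% called. The list had a median of -0.27 that was 0.12 without Mdr2+/+ replicate 1. Il18bp, the secreted protein that neutralises interleukin-18, fell to 14.9, 12.7 and 12.5 CPM in Mdr2+/- livers, against 26.0 and 20.5 CPM in Mdr2+/+ livers (log2 fold change -0.81, SE 0.12, edgeR adjusted p = 0.00415). Exons of Il18bp overlap those of Numa1 on the opposite strand, a gene with a mean of 831 estimated counts beside 250.4 for Il18bp. Part of the Il18bp reads is therefore uncertain. Gsdmd, the pore-forming protein through which interleukin-1 family cytokines leave the cell, fell to 16.5 ± 0.932 CPM in Mdr2+/- livers, against 26.1 ± 1.57 CPM in Mdr2+/+ livers (log2 fold change -0.67, SE 0.09, edgeR adjusted p = 0.00245). Il18bp and Gsdmd were called in 14 of 14 alternatives each, none of which changes how reads were assigned to genes. Il1r1, the receptor that Il1rn blocks, fell to 21.7 ± 0.580 CPM in Mdr2+/- livers, against 26.4 ± 1.1 CPM in Mdr2+/+ livers (log2 fold change -0.29, SE 0.08, edgeR adjusted p = 0.0444), and this call was lost with any library left out (0.0857 to 0.207).

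**Figure D5:**
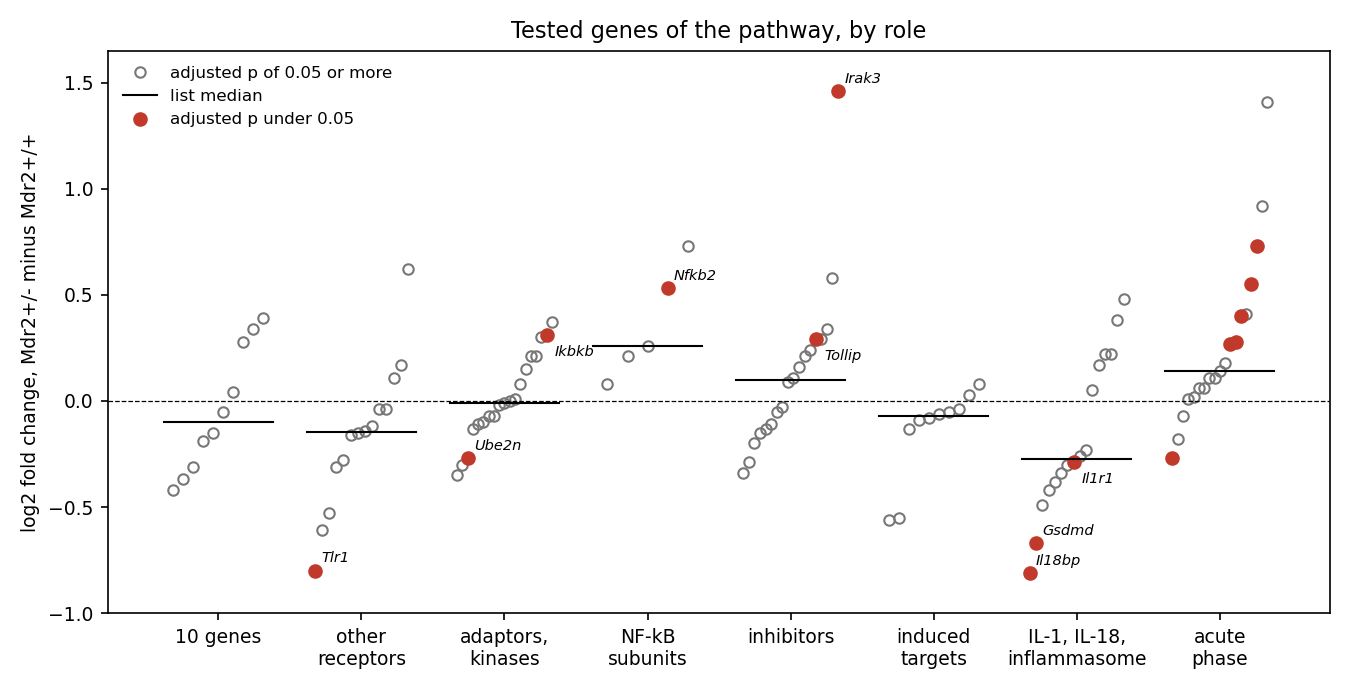
Log2 fold change (Mdr2+/- minus Mdr2+/+) of every tested gene, by role, with filled points for an adjusted p under 0.05 and a line at the median of each list. None of the 10 genes is filled, the 5 NF-kB subunits all lie above 0, and Il18bp and Gsdmd are the lowest called points of their list.

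Because Lbp is an acute phase gene of hepatocytes, 22 genes of the acute phase response were read beside it. They include its regulators Il6ra, Stat3, Cebpb and Cebpd. Of 19 tested, 5 rose and 1 fell (31.6%, beside 12.0% of all genes), with a median of 0.14. Orm1, Orm2 and Orm3 were not tested. The share over all genes was not matched for expression level. Saa1 (log2 fold change 0.92, edgeR adjusted p = 0.0511), Saa2 (1.41, 0.0715) and Saa3 (0.18, 0.699) did not pass. Nor did Hp (log2 fold change 0.11), Hpx (0.14), Fga (0.11), Fgb (0.02), Fgg (0.06) and Serpina3n (-0.07). The regulators Il6ra (0.41), Stat3 (0.06), Cebpb (-0.18) and Cebpd (0.01) did not pass either. Saa4, a constitutive serum amyloid, rose to 110 ± 3.13 CPM in Mdr2+/- livers, against 75.0 ± 2.35 CPM in Mdr2+/+ livers (log2 fold change 0.55, SE 0.06, edgeR adjusted p = 0.0011). Lcn2, a siderophore-binding protein made by neutrophils and by hepatocytes under stress, rose to 28.9 ± 4.69 CPM in Mdr2+/- livers, against 17.5 ± 0.687 CPM in Mdr2+/+ livers (log2 fold change 0.73, SE 0.13, edgeR adjusted p = 0.00874). Its call was lost without Mdr2+/+ replicate 1 (0.0519) or 2 (0.0524). Itih4 rose to 3130 ± 238 CPM in Mdr2+/- livers, against 2378 ± 81.2 CPM in Mdr2+/+ livers (log2 fold change 0.40, SE 0.08, edgeR adjusted p = 0.0112), lost without Mdr2+/+ replicate 1 (0.0576). The number of these genes called higher was 1 without Mdr2+/+ replicate 1, 3 without Mdr2+/+ replicate 2 and 3 without Mdr2+/- replicate 2. Crp and Itih3 also rose and Apcs fell, the last with an adjusted p of 0.0492 that did not hold in 4 of the 5 fits with a library left out.

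Markers of the cell types in the tissue were read beside these genes, where 6.63% of all tested genes were higher and 5.41% lower. In whole liver, fewer cells of a type and less RNA per cell cannot be told apart. Of 13 Kupffer cell markers, 4 were lower (Marco, C1qb, Cd163 and Msr1) and 0 higher. The summed level of the 13 was 522 to 604 CPM in Mdr2+/- and 517 to 739 CPM in Mdr2+/+ livers. Fold changes lay below 0 in 10 of the 13, among them Clec4f (-0.05) and Vsig4 (-0.13), and above 0 in 3. Those 3 were Cd5l (0.17), Csf1r (0.11) and Adgre1 (0.51), and none of them was called. Of 15 neutrophil and monocyte markers, 11 were higher and 0 lower, with a summed level of 374 to 475 CPM in Mdr2+/- and 122 to 175 CPM in Mdr2+/+ livers. The 11 were S100a8, S100a9, Ngp, Ltf, Camp, Mpo, Elane, Prtn3, Ctsg, Itgam and Ly6c2. The 4 not called were Ly6g (log2 fold change 1.21), Csf3r (0.16), Ccr2 (0.09) and Cxcr2 (-0.31), so the rise did not cover the whole list. Whether mature cells or their precursors held these transcripts was not tested. Of 8 sinusoidal endothelial markers, 2 were lower and 0 higher (328 to 358 CPM in Mdr2+/-, 343 to 351 CPM in Mdr2+/+). Of 7 hepatocyte markers, 1 was higher and 1 lower (166796 to 181432 CPM in Mdr2+/-, 155497 to 168796 CPM in Mdr2+/+), and none of the markers in these 4 lists was at 0 in all libraries. Among blood-forming cells, 6 of 7 erythroid markers were lower (1899 to 2205 CPM in Mdr2+/-, 3234 to 3893 CPM in Mdr2+/+) and 3 of 4 B cell markers were higher (25.9 to 31.6 CPM in Mdr2+/-, 11 to 16.4 CPM in Mdr2+/+). The summed level of the 10 genes was 341 to 346 CPM in Mdr2+/- and 336 to 347 CPM in Mdr2+/+ livers. Most of it was Lbp (means of 277 CPM in Mdr2+/- and 270 CPM in Mdr2+/+ livers), so the sum says little about the other genes. Neutrophils and monocytes are known to express Tlr2, Cd14, Il1b and Il1rn. The groups overlapped for Tlr2, Il1b and Il1rn and not for Cd14, where 45.5% of all tested genes did not overlap. With 13 to 80 counts per library in these genes, modest differences would be hard to see. What part the makeup of the tissue had in any of these values was not tested.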

How the data were processed

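Total RNA of liver lobe 1 had been made into TruSeq libraries and sequenced on a HiSeq instrument, per the labels' protocols. TopHat and the mouse build mm10 are named in the submitters' processing notes. The counting tool, the annotation and any use of strand: not given in the sources used here. The authors deposited estimated counts per Ensembl gene, 1 table per library, not scaled to depth or length. Of values above 0, 33.9 to 37.3% were whole (tolerance 1e-06).

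Counts were rounded (a change of 201 to 309 per library) and filtered by filterByExpr (minimum count 10), which kept 13959 genes and 99.9% of counts. Libraries were scaled by TMM and compared by the quasi-likelihood test in edgeR 4.0.16 (two-sided, no covariate, Benjamini-Hochberg over all tested genes, threshold 0.05). The SE is the log2 fold change over the square root of F, and 95% intervals use the fit's degrees of freedom. Alternatives used limma 3.58.1 and DESeq2 1.42.0 in R 4.3.3, other scalings and filters, unrounded counts, an offset for transcript length, the replicate number as a block and each library left out. The procedure was also run on counts simulated as independent libraries with the fit's own estimates of spread. That run does not bear on whether the libraries of a genotype come from different pups.

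Coordinates and lengths came from GENCODE M21 (same build), which gave a length for 97.2% of tested genes. Of the listed genes, 3 were matched through the Ensembl identifier of their current symbol. Besides the 10 genes, the text names Abcb4 and the 3 genes of lowest p in each pathway list; genes beyond these were chosen after their values were seen. The 10 genes and the lists were chosen with earlier results of these data known. No 2 libraries agreed within sampling noise (chi-square per degree of freedom 5.30 to 25.8). Intervals and floors from counts cover counting error only.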

Additional observations from a re-analysis of the deposited data

How the results depend on the processing

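The 14 alternative fits gave 140 values for the 10 genes, of which 0 made a call and 132 kept the direction. These fits reuse the same libraries and are not independent. The sign turned for Tlr4 (-0.15) with the replicate block (0.07), without Mdr2+/+ replicate 1 (0.00) or without Mdr2+/- replicate 3 (0.06), with a low of -0.44 without Mdr2+/- replicate 1; for Nfkbia (-0.05) with the length offset (0.03), without Mdr2+/+ replicate 2 (0.12) or without Mdr2+/- replicate 1 (0.04), with a low of -0.22 without Mdr2+/+ replicate 1; for Lbp (0.04) by library size alone (-0.00); and for Il1b (0.39) without Mdr2+/+ replicate 2 (-0.05; 1.18 without Mdr2+/+ replicate 1). None of these values passed a test and the cause was not tested.

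With single libraries left out, the genes called over all ran from 697 to 1174 (345 to 670 higher, 352 to 504 lower), against 1680. DESeq2 called 501 lower, against 755. Of the 6 pathway lists, 4 higher and 5 lower calls became 0 to 2 higher and 2 to 5 lower with a library left out, 0 higher and 2 lower in DESeq2, and 2 higher with the replicate block. Cxcl10 turned to 0.14 and Traf1 to 0.24 without Mdr2+/+ replicate 1, and were -0.99 and -0.98 without Mdr2+/+ replicate 2. Fits with 1 library left in the Mdr2+/+ group assume that it varies like the others.

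Replicate numbers 1 and 2 occur in both genotypes, but nothing in the labels says that they pair pups. Deviations from the genotype mean of same-numbered libraries correlated at 0.03 in both pairs. With 2 Mdr2+/+ libraries these deviations mirror each other, so the 2 values are not independent. The block called 1277 genes in all. With the block, Ikbkb (0.31, adjusted p = 0.0848), Il1r1 (-0.30, 0.0930), Nfkb2 (0.47, 0.0572) and Tlr1 (-0.67, 0.123) were not called. DESeq2 also lost Tlr1 (0.172), Nfkb2 (0.0756), Tollip (0.0696), Irak3 (0.189) and Il1r1 (0.235), the length offset Tlr1 (0.0561), and the fit without a filter Il1r1 (0.0561).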
